A study of Mus musculus with 6 samples.

Results

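The genes described here encode the amino acid and neurotransmitter carriers of the plasma membrane and lysosome that belong to solute carrier families SLC1, SLC3, SLC6, SLC7, SLC36, SLC38 and SLC43. They were taken by symbol alone, as every gene named Slc followed by 1 of those 7 family numbers, the letter a and a member number. This gave 60 of the 28043 genes in the tables: 21 of SLC6, 12 of SLC7, 11 of SLC38, 7 of SLC1, 4 of SLC36, 3 of SLC43 and 2 of SLC3. Polyadenylated RNA had been sequenced from primary retinal pigment epithelium (RPE) cells of the mouse eye. The 3 Normal libraries came from normal mice and the 3 PVR libraries from mice with proliferative vitreoretinopathy, a scarring disease of the injured eye that the series title calls traumatic. No label gives a strain, an allele, an age, a time after injury or the way in which the disease was produced, and none says that the replicates were separate animals. What the p-values measure is therefore the scatter of these 6 libraries, part or all of which may be technical.

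The RPE is a polarised layer between the photoreceptors and the choroidal blood supply, and amino acids reach the outer retina across it. SLC1 carriers take up glutamate or exchange small neutral amino acids, and SLC6 carriers use the sodium gradient to take up GABA, taurine, creatine, glycine, proline or monoamines. Most SLC7 light chains reach the membrane only when joined to a heavy chain of SLC3, with which they exchange 1 amino acid for another. SLC36 carriers move small amino acids together with protons, SLC38 carriers move glutamine and other neutral amino acids with sodium, and SLC43 holds facilitators of large neutral amino acids and a nucleobase carrier.

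The reads counted in genes numbered 15269983 to 19173187 per library. Each value below is a normalised read count, given for replicates 1, 2 and 3 of a group in that order, and each mean ± SD is over the 3 libraries of a group. Where different genes are compared it is a level per length, in RPKM (reads per kilobase of annotated exon, scaled to the library's total reads). Log2 changes are differences in mean log2(normalised count + 1), with positive values for higher PVR, and are too small for sparsely counted genes. A gene is called higher or lower, and said to have risen or fallen, where its limma p-value, adjusted by Benjamini-Hochberg over the 15766 genes tested, was under 0.05. RPE markers were abundant in every library, with a summed normalised count of 849588 to 914208 in Normal and 597905 to 654450 in PVR. Of the 12 RPE markers 7 fell and 0 rose, and Best1, a defining RPE channel, had only 7.56 to 22.8 normalised counts over the 6 libraries. Of 18 macrophage and microglia markers 17 rose and 1, Csf1r, fell. Their summed count was 10802 to 12209.9 in Normal and 66309, 91366 and 37159 in PVR replicates 1 to 3. Fibroblast and pericyte markers rose in 6 of 8 (sums 4111 to 5215 and 7163 to 9073), red blood cell markers fell in 3 of 3 tested (185 to 430 and 14.2 to 37.1) and the 1 tested marker of T and B cells rose (sums over the list 11.8 to 33.0 and 53.5 to 78.3). No rod and cone marker of 9 was called (188 to 1067 and 326 to 1007), nor an endothelial marker of 8 (305 to 937 and 792 to 1329). Markers of Müller glia and astrocytes rose in 1 of 6 (33281 to 42732 and 38462 to 43144). Retinal neuron markers rose in 1 and fell in 1 of 4 (1284 to 1777 and 458 to 722). No marker in any of these lists was at 0 in all libraries. In such bulk RNA fewer cells of a type and less RNA per cell cannot be told apart, and the part of these cell types in the results on carriers was not tested.

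Of the 60 carrier genes 47 had enough reads to be tested, and 16 of these rose and 5 fell in PVR. The 21 called carriers are 44.7% of those tested, against 30.8% of all genes tested. The 16 that rose are 34.0%, against 17.9% of all genes, and the 5 that fell are 10.6%, against 12.9% of all genes. At least a 2-fold rise was called for 11 carriers (23.4%, against 11.6% of all genes) and at least a 2-fold fall for 3 (6.38%, against 3.58%). When the test itself was set against a change of 1.5-fold, 9 carriers were higher and 2 lower, and 9.39% of all genes were called. The ranges of the Normal and PVR libraries did not overlap for 29 of the 47 carriers (61.7%), against 48.0% of all genes. The median log2 change was 0.28 over the tested carriers, with a range of -2.55 to 4.23, and -0.02 over all genes tested. Both directions occurred in SLC6, SLC7 and SLC38, whereas all called members of SLC1, SLC3, SLC36 and SLC43 were higher.

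**Figure D1:**
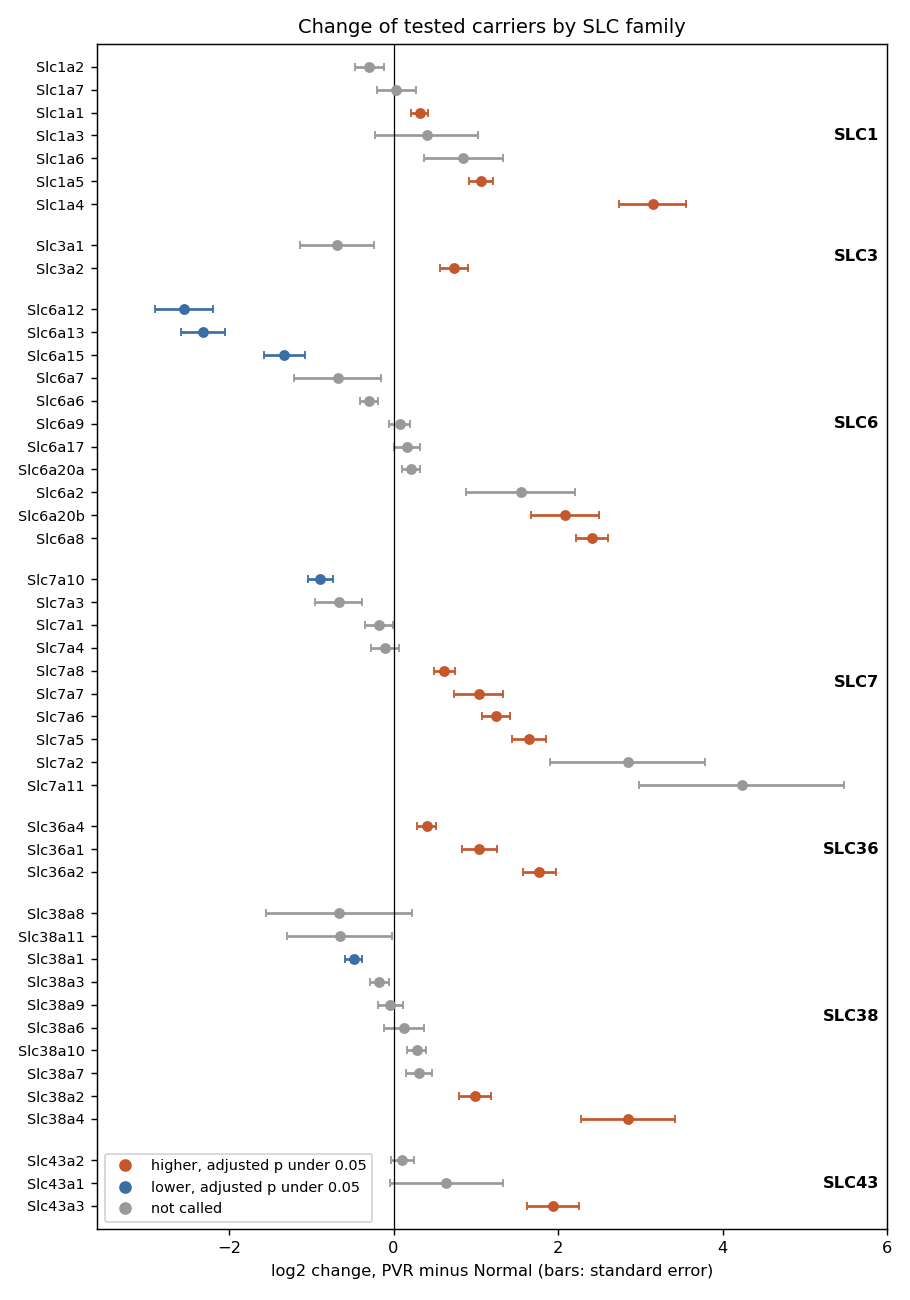
Log2 change (PVR minus Normal, log2 scale, horizontal axis) of the tested carriers, with 1 left out, grouped by family, with the standard error of the limma fit as bars. Orange marks called higher, blue called lower and grey not called. All 3 tested SLC36 genes were called higher, and the lowest values are those of Slc6a12 (-2.55) and Slc6a13 (-2.32) in SLC6.

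In Normal RPE a few carriers made up most of the transcript level of the 60 genes. The 10 genes with the highest level per length held 90.7% of the summed level, and the same 10 genes were the highest 10 in PVR. In Normal the order was led by the GABA carrier Slc6a13 (299 RPKM), the proline carrier Slc6a20a (179) and the small neutral amino acid exchanger Slc7a10 (155). In PVR it was led by the large neutral amino acid exchanger Slc7a5 (205), Slc6a20a (197) and the heavy chain Slc3a2 (152). Slc6a13 went from rank 1 to rank 9, and Slc7a5 from rank 9 to rank 1. The leaders depend on the length used. By the longest transcript in place of all exons, Slc1a1 was at rank 2 in Normal (244 RPKM) and rank 1 in PVR (289), where Slc7a5 (216) was at rank 2 and Slc3a2 (191) at rank 4, and Slc6a13 still went from rank 1 to rank 9. Summed over all 60 genes the level was 1339 ± 2.29 in Normal and 1272 ± 75.1 in PVR. PVR replicate 1 (1339.9) lay within the Normal range (1337 to 1341) and the other PVR libraries (1192 and 1286) below it.

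The summed SLC6 level was lower in PVR, with another gene in the lead. The summed level per length was 666, 698 and 671 in Normal and 456, 390 and 497 in PVR. The 3 PVR libraries were all below the Normal ones. Of 21 members 12 were tested, and 2 rose, 3 fell and 7 were not called, with a median log2 change of 0.10.

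Slc6a13, which takes up GABA and taurine (also called GAT2; chromosome 6, bases 121300227 to 121337733 of GRCm38), had a normalised count of 14008, 14073 and 14950.5 in Normal and 2912, 1917 and 4257 in PVR. The lowest Normal library was thus above 3 times the highest PVR library. It fell 4.74-fold (log2 change -2.32, SE 0.26, adjusted p 0.00089). Slc6a12, the betaine and GABA carrier that starts 5342 bases beyond the end of Slc6a13 on the same chromosome, had 293, 260.2 and 180.4 in Normal and 38.1, 25.1 and 67.1 in PVR. It fell 5.63-fold with no overlap between the groups (log2 change -2.55, SE 0.35, adjusted p 0.000816). Neither of the 2 other tested genes within 100 kb of the pair, Iqsec3 and Usp18 (a distance chosen after the values were seen), was called (adjusted p 0.233 and 0.108). In PVR both carriers were lowest in replicate 2 and highest in replicate 3. The macrophage marker sum had the opposite order in these 3 libraries, and the RPE marker sum the same order (605644, 597905 and 654450). That RPE sum differed far less between the libraries than Slc6a13 did (1917 to 4257). A relation of the marker sums to the 2 carriers was not tested. Together the pair had a level per length of 304 ± 7.03 in Normal and 61.1 ± 25.4 in PVR. Slc6a11 (GAT3), a further GABA carrier, had too few reads to test.

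Slc6a8, the creatine carrier on chromosome X (bases 73673150 to 73682502), had 370.0, 247 and 344 in Normal and 2047, 1756 and 1333 in PVR. Every PVR library was above 3 times every Normal library. It rose 5.34-fold (log2 change 2.41, SE 0.20, adjusted p 0.000105), and its level per length was 3.71 ± 0.667 in Normal and 18.8 ± 3.32 in PVR. The taurine carrier Slc6a6, which supplies the most abundant free amino acid of the retina, had 13494, 14284 and 14009 in Normal and 12523, 10362 and 11132 in PVR. Its groups did not overlap, with PVR lower, but it was not called (log2 change -0.30, SE 0.11, adjusted p 0.0633). DESeq2 called it (adjusted p 0.0433), as did limma with scaling to library totals (0.0237) or without the filter on low counts (0.0441). The glycine carrier Slc6a9 (GlyT1) had 6386 to 7314 in Normal and 6144 to 8078 in PVR, overlapping groups with a log2 change of 0.07 (SE 0.124). Of its exon bases 27.8% are shared with the sparsely counted Ccdc24 on the opposite strand.

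Slc6a20a encodes a carrier of proline and other imino acids, and Slc6a20b, a closely related copy, lies beside it on chromosome 9, separated by 2204 bases. Slc6a20a had 11921, 11682 and 12595 in Normal and 14287, 12879 and 14799 in PVR. All PVR values were above all Normal ones, yet the difference was small and not called (log2 change 0.21, SE 0.11, adjusted p 0.157). Slc6a20b, at a far lower level per length (0.389 ± 0.205 in Normal and 1.54 ± 0.564 in PVR), had 87.6, 35.2 and 41.7 in Normal and 320.2, 236 and 137 in PVR. It rose 4.21-fold (log2 change 2.09, SE 0.41, adjusted p 0.00612). Reads could be split between these copies in counting. Of the exon bases of Slc6a20b 21.1% also lie in exons of Sacm1l on the opposite strand, which was not called. The mean count of Sacm1l (964 in Normal and 958 in PVR) was far above that of Slc6a20b (54.8 and 231). Both make the values of Slc6a20b uncertain, to an extent that is not known.

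Slc6a15, a carrier of branched-chain amino acids and proline, had 163, 251 and 280.1 in Normal and 80.3, 77.4 and 114 in PVR. It fell 2.55-fold without overlap (log2 change -1.33, SE 0.25, adjusted p 0.00327). Slc6a17, a relative found on synaptic vesicles, had 1339.9 to 1733 and 1379 to 1976, and the proline carrier Slc6a7 10.9 to 38.1 and 9.11 to 20.8. Neither was called. The noradrenaline carrier Slc6a2 had 3.09, 19.4 and 5.44 in Normal and 31.9, 31.9 and 11.3 in PVR. Normal replicate 2 was above PVR replicate 3, and the gene was not called (adjusted p 0.109), but it was without Normal replicate 2 (0.0226).

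As shares of the SLC6 level, Slc6a13 went from 44.1% ± 0.132 to 13.2% ± 4.01. The share of Slc6a20a went from 26.4% ± 0.398 to 44.2% ± 2.09, although its own count differed little. The share of any member depends on the others, so these shares carry no test.

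**Figure D2:**
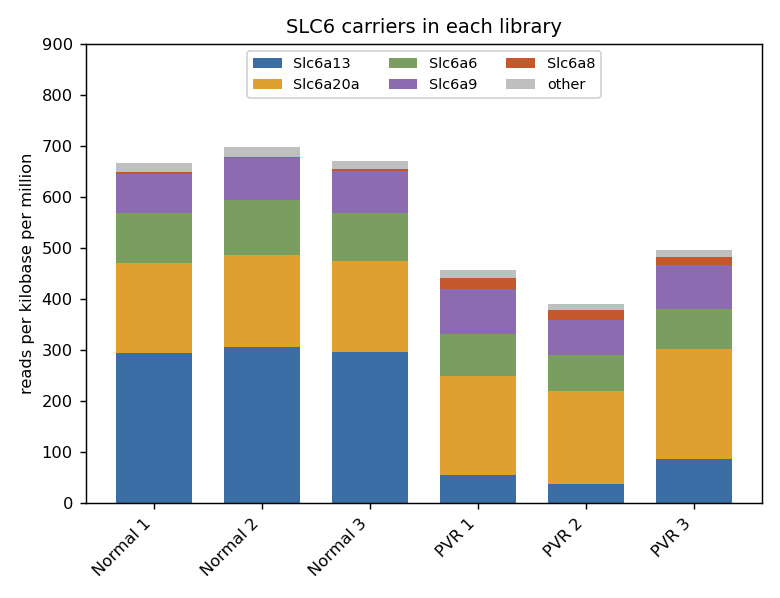
Stacked bars from 0 of the SLC6 transcript level in each library (vertical axis, RPKM; 1 bar per library, Normal then PVR, 1 colour per gene). The Normal bars reach 666 to 698 and the PVR bars 390 to 497, and the Slc6a13 segment is the one that differs most.

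The heavy chain and most of its light chains rose in PVR, while the light chain most abundant in Normal fell. The heavy chain Slc3a2 (CD98; chromosome 19, bases 8706882 to 8723369) had 5990.2, 4815 and 5916 in Normal and 12013, 8073 and 8064 in PVR. It rose 1.68-fold (log2 change 0.73, SE 0.17, adjusted p 0.0102). PVR replicate 1 stood above the other PVR libraries, and all 3 were above every Normal library. The other heavy chain, Slc3a1, which pairs with a cystine carrier of kidney and gut, went from 24.4 ± 8.97 to 14.6 ± 5.06 (mean ± SD, n = 3) and was not called. Of its exon bases 26.5% also lie in exons of the far more abundant Prepl on the opposite strand.

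Of 6 tested light chains 4 rose, 1 fell and 1, Slc7a11, was not called. Over all genes tested 17.9% rose and 12.9% fell. All 6 light chains had groups without overlap, as had 48.0% of all genes. Slc7a5 (LAT1; chromosome 8, bases 121881150 to 121907694), which imports leucine and other large neutral amino acids in exchange for glutamine, had 4382, 3331 and 4881 in Normal and 17009, 12781 and 10031 in PVR. It rose 3.16-fold (log2 change 1.64, SE 0.21, adjusted p 0.000853). Slc7a10 (Asc-1; chromosome 7, bases 35186385 to 35201114), which exchanges small neutral amino acids including D-serine, had 6060.3, 4811 and 5329 in Normal and 2638, 2568 and 3617 in PVR. It fell 1.84-fold (log2 change -0.89, SE 0.15, adjusted p 0.00184). Lrp3, whose exons on the opposite strand share 17.9% of the exon bases of Slc7a10, fell as well (log2 change -0.78, adjusted p 0.00298), and without strand information the 2 cannot be fully told apart. The ratio of the level of Slc7a5 to that of Slc7a10 was 0.412, 0.394 and 0.521 in Normal and 3.67, 2.83 and 1.58 in PVR. Slc7a10 was thus the higher of the pair in each Normal library and Slc7a5 in each PVR library.

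Slc7a8 (LAT2), another exchanger of neutral amino acids, had 2341, 2580.1 and 2684 in Normal against 3876, 4509 and 3334 in PVR, and rose 1.54-fold (log2 change 0.62, SE 0.13, adjusted p 0.00524). The exchangers of cationic for neutral amino acids were much less abundant. Slc7a6 had 108, 120.4 and 131 in Normal against 293, 321 and 244 in PVR, and rose 2.39-fold (log2 change 1.24, SE 0.17, adjusted p 0.000649). Slc7a7 had 61.8, 72.2 and 69.8 in Normal against 135, 216 and 93.5 in PVR, and rose 2.18-fold (log2 change 1.03, SE 0.30, adjusted p 0.0252). It shares 232 exon bases with Oxa1l on the opposite strand, which was not called. The call of Slc7a7 was lost without Normal replicate 1 (adjusted p 0.0837), Normal replicate 3 (0.0618), PVR replicate 1 (0.0571) or PVR replicate 2 (0.0823). Slc7a7 is also expressed by macrophages. Its PVR libraries had the same order as the macrophage marker sum, highest in replicate 2 and lowest in replicate 3. Slc7a6, Slc7a8, Slc36a1, Slc38a4 and Slc43a3 had that order too. So did some carriers that were not called, Slc1a3, Slc38a6 and Slc38a7 among them. Of the 16 higher carriers 7, Slc7a5 and Slc3a2 among them, were instead highest in replicate 1. The share of all genes with that order was not counted, and a relation to macrophages was not tested.

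Summed over the 6 light chains the level per length was 257 ± 20.5 in Normal and 337 ± 33.8 in PVR. For Slc3a2 alone it was 95.4 ± 8.61 in Normal and 152 ± 31.8 in PVR. The ratio of light chains to heavy chain was 2.69, 2.75 and 2.64 in Normal and 1.98, 2.50 and 2.27 in PVR, without overlap. Of the light chain level, Slc7a5 held 26.5% ± 2.94 in Normal and 60.1% ± 7.85 in PVR, Slc7a10 60.2% ± 2.98 and 24.3% ± 7.74, and Slc7a8 10.2 to 13.8% and 11.5 to 15.7% (ranges). These sums and ratios are descriptions, since 3 libraries against 3 cannot give an exact two-sided permutation p below 0.1.

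**Figure D3:**
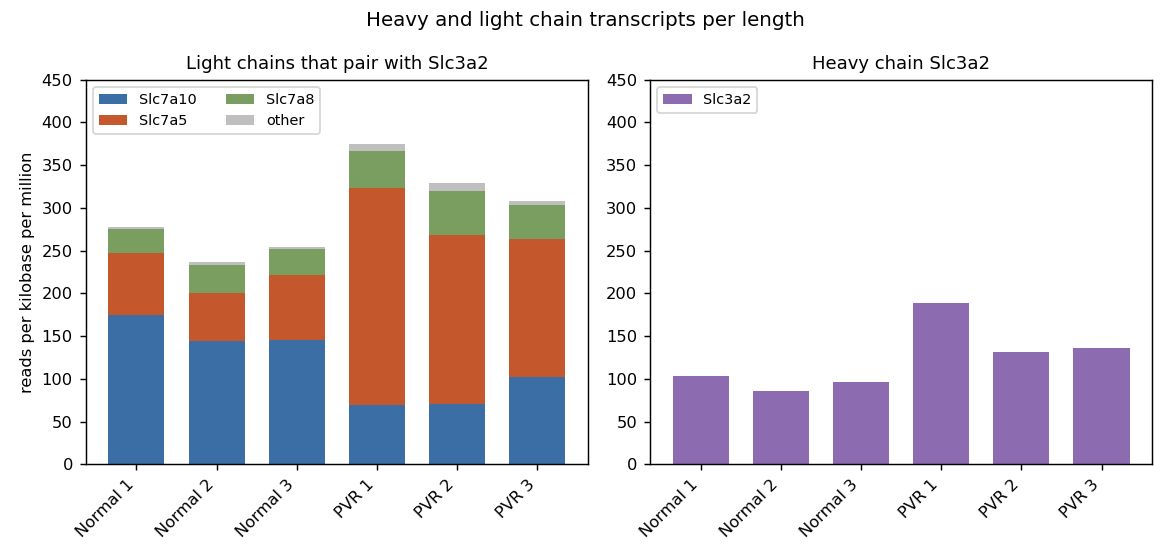
Level per length (vertical axis, RPKM) of the light chains as stacked bars from 0 (left, 1 colour per gene) and of the heavy chain Slc3a2 as bars (right), 1 bar per library. The Slc7a5 segment and the Slc3a2 bar are taller in each PVR library than in any Normal one, and the Slc7a10 segment is shorter.

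The cystine and glutamate exchanger Slc7a11 (xCT; chromosome 3, bases 49892526 to 50443614), which brings in the cystine used for glutathione, had 6.18, 107 and 4.53 in Normal and 518, 282 and 191 in PVR. Its log2 change was the largest of the tested carriers (4.23), but Normal replicate 2 stood far above the other Normal libraries and the gene was not called (SE 1.24, adjusted p 0.0542). Without that library it was called (adjusted p 2.11e-05). The cationic carrier Slc7a2, which brings arginine into macrophages and other cells, had 22.7, 90.8 and 9.06 in Normal and 345, 252 and 91.6 in PVR. It showed the same high Normal replicate 2 and was not called (log2 change 2.84, SE 0.94, adjusted p 0.0740), but was without that library (adjusted p 0.00539) or with the replicate number as a block (0.00402). Normal replicate 2 was at least 3 times both other Normal libraries in 6 of the 47 tested carriers (Slc1a3, Slc6a2, Slc7a2, Slc7a11, Slc38a8 and Slc43a1), and neither other Normal library was so in any. The share over all tested genes was not counted, so this is not shown to be particular to carriers. Normal replicate 2 also had the highest rod and cone marker sum (1067) and the highest Müller glia and astrocyte sum of the Normal libraries (42732, in a list that itself holds Slc1a3). Its macrophage marker sum (10802) was the lowest. The part of these cells in the values of Normal replicate 2 was not tested.

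The remaining cationic carriers were not called. Slc7a1, the main arginine carrier of most cells, had 929 to 1356 in Normal and 809.8 to 1144 in PVR, and Slc7a4, whose substrate is not settled, 355 to 492 and 344 to 479.8. Slc7a3 had 111, 84.3 and 63.4 in Normal against 42.2, 56.9 and 60.4 in PVR, lower in all PVR libraries but not called (adjusted p 0.104).

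In SLC1 the neutral amino acid exchangers rose and most glutamate carriers were not called. Slc1a4 (ASCT1; chromosome 11, bases 20302180 to 20332713), which exchanges serine, alanine and cysteine, had 8.25, 26.9 and 22.7 in Normal and 181, 163 and 142 in PVR. It rose 8.41-fold (log2 change 3.15, SE 0.40, adjusted p 0.000491), and the lowest PVR library was over 3 times the highest Normal one. Slc1a5 (ASCT2), the exchanger best known for glutamine uptake, had 325, 244 and 276 in Normal and 663, 544 and 559 in PVR. It rose 2.09-fold (log2 change 1.07, SE 0.14, adjusted p 0.000636). Both stayed far below the glutamate carrier Slc1a1 (EAAT3), which held 93.5% of the family's level in Normal and 90.6% in PVR. Slc1a1 had 14431, 15598 and 15978 in Normal and 18341, 20367 and 18605 in PVR. Its groups did not overlap and it rose 1.25-fold (log2 change 0.32, SE 0.11, adjusted p 0.0459), a call that was lost when any 1 library was left out (adjusted p 0.0627 to 0.134), under edgeR (0.0524) and with scaling to library totals (0.113). Of its exon bases 31.9% also lie in exons of 4430402I18Rik on the opposite strand, a gene with a mean of 43.6 normalised counts in Normal and 35.9 in PVR.

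The glial glutamate carriers overlapped between the groups. Slc1a2 (GLT-1) had 312, 334 and 324 in Normal against 206, 265 and 336 in PVR, and Slc1a3 (GLAST), the main carrier of Müller glia, 18.6, 108 and 30.8 in Normal against 61.8, 70.6 and 34.0 in PVR. Slc1a6 and Slc1a7, carriers of Purkinje cells and of photoreceptors and bipolar cells, had at most 26.8 and 82.2 normalised counts in any library, and Slc1a6 was higher in all PVR libraries than in any Normal one. None of the 4 was called, with log2 changes of -0.29 (SE 0.179), 0.40 (0.624), 0.85 (0.480) and 0.03 (0.234).

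All 3 tested proton-coupled carriers of SLC36 rose. Slc36a1 (PAT1), which moves small amino acids out of lysosomes and across apical membranes, had 331, 291 and 258 in Normal against 566, 841 and 459 in PVR. It rose 2.12-fold (log2 change 1.04, SE 0.21, adjusted p 0.00625). Slc36a2 (PAT2), a carrier of glycine and proline, had 92.8, 70.4 and 84.3 in Normal against 252, 349 and 256 in PVR. It rose 3.46-fold (log2 change 1.77, SE 0.20, adjusted p 0.000251). Slc36a4, the family's most abundant member per length (9.30 ± 0.877 in Normal and 11.7 ± 0.754 in PVR), had 890.5, 1003 and 1126 in Normal against 1278, 1399.8 and 1303 in PVR. It rose 1.32-fold (log2 change 0.40, SE 0.11, adjusted p 0.0226), a call lost without Normal replicate 1 (adjusted p 0.0867), Normal replicate 2 (0.0592) or PVR replicate 2 (0.0738). All 3 genes were highest in PVR replicate 2. Slc36a1 and Slc36a2 lie within 1 stretch of chromosome 11 (bases 55124815 to 55236330) with the untested Slc36a3. Of the 4 other tested genes within 100 kb, a distance chosen after the values were seen, 2 were called higher. Over all genes tested 17.9% were called higher, and so few neighbours give no result about the region.

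The sodium-coupled carriers of SLC38 went both ways. The system A carriers, which import alanine, glutamine and other small neutral amino acids, were all called, 2 higher and 1 lower. Slc38a2 (SNAT2), the member known to be raised in cells deprived of amino acids, had 1528, 951 and 1115 in Normal and 2869.8, 1981 and 2236 in PVR. It rose 1.97-fold (log2 change 0.99, SE 0.20, adjusted p 0.00618). Slc38a1 (SNAT1), its neighbour at a distance of 44478 bases on chromosome 15, had 4729.7, 4957 and 5561 in Normal and 3487, 3614 and 3802 in PVR. It fell 1.40-fold (log2 change -0.48, SE 0.10, adjusted p 0.00653), again without overlap. Slc38a4 (SNAT4), known from liver and placenta, had 3.09, 10.2 and 3.63 in Normal and 29.9, 83.1 and 29.3 in PVR. It rose 8.42-fold from very few reads (log2 change 2.85, SE 0.57, adjusted p 0.00455). The fold was 14.1 without Normal replicate 2 and 5.25 without PVR replicate 2. Summed over the 3 genes, the level per length was 26.1 ± 1.09 in Normal and 28.1 ± 1.84 in PVR.

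The glutamine carrier Slc38a3 (SNAT3, system N) was the most abundant SLC38 member, at 95.6 ± 7.75 in Normal and 80.7 ± 8.20 in PVR (RPKM). It had 7627, 7945 and 9492 in Normal against 7211, 6985 and 7986 in PVR, and was not called (log2 change -0.17, SE 0.118). None of the other 6 tested members was called. Among them Slc38a10 had 2400.4, 2300.4 and 2791 in Normal against 3378, 2841 and 2885 in PVR, higher in all PVR libraries (adjusted p 0.0957). The lysosomal carriers Slc38a7 and Slc38a9, the second of which signals arginine to the growth kinase mTOR, had 219 to 244 and 322 to 389 in Normal and 257 to 356 and 289 to 395 in PVR, so that only Slc38a7 of this pair had groups without overlap. Slc38a6 had 121 to 201 and 138 to 232. Slc38a8 and Slc38a11 had at most 53.7 and 40.8 normalised counts in any library.

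In SLC43 the nucleobase carrier Slc43a3 rose 3.87-fold, with 28.9, 38.9 and 19.9 in Normal against 106, 144 and 89.7 in PVR (log2 change 1.94, SE 0.32, adjusted p 0.00159). The facilitators of large neutral amino acids were not called. Slc43a2 (LAT4), which holds most of the family's level, had 1284, 1112 and 1437 in Normal against 1184, 1600.2 and 1356 in PVR, and Slc43a1 (LAT3) had 10.3, 38.9 and 4.53 in Normal against 25.7, 23.9 and 13.2 in PVR.

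**Figure D4:**
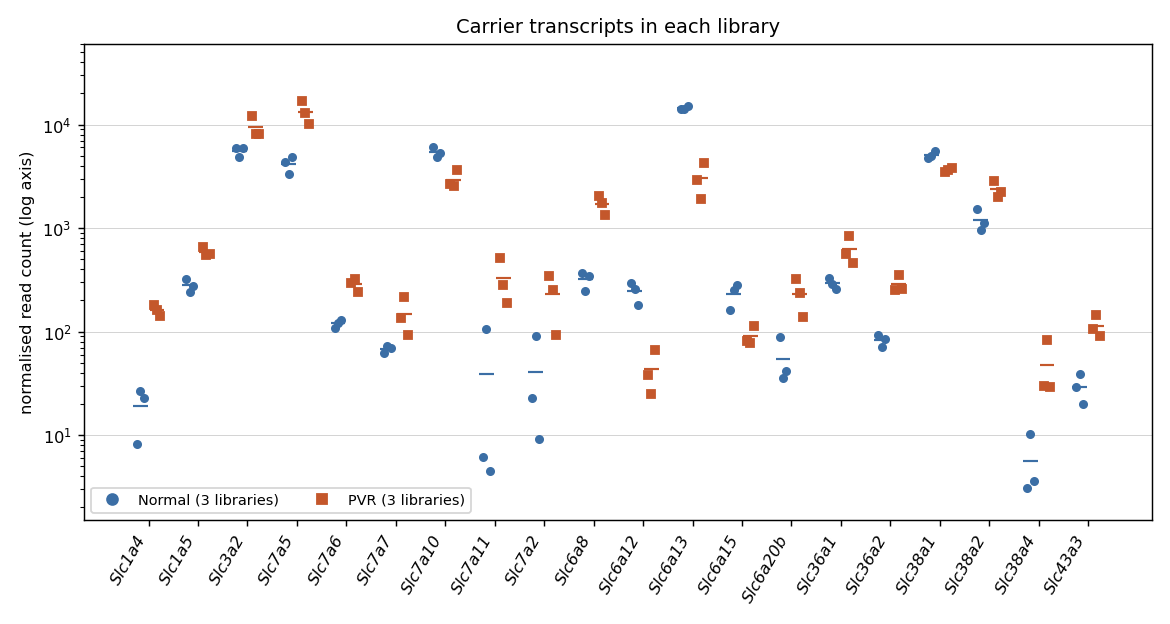
Normalised read counts (vertical log axis) of 20 carriers, Slc7a11 and Slc7a2 among them, in the 3 Normal libraries (blue circles) and the 3 PVR libraries (orange squares); short lines are group means. Slc7a11 shows 1 Normal library at 107 and the others at 6.18 and 4.53, and Slc6a13 shows the 3 PVR libraries (1917 to 4257) below all Normal ones.

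The PVR libraries were not alike in the carriers that rose. In both groups the record number of replicate 3 lies far from those of replicates 1 and 2. Whether replicate 3 was a separate batch was not tested. Of the 16 higher carriers 11 were lowest in PVR replicate 3 and 0 were highest there, whereas 9 were highest in PVR replicate 2 and 7 in PVR replicate 1. PVR replicate 3 also had the lowest macrophage marker sum of the PVR libraries. These counts describe the libraries and carry no test, and their relation to the marker sums was not tested. The matching shares over all higher genes were not counted, so the pattern is not shown to be particular to carriers.

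The other 13 carriers had too few reads to test, at most 20 reads in a library for Slc6a11 and at most 15 for the others. They were the monoamine carriers Slc6a3 (dopamine) and Slc6a4 (serotonin), the glycine carrier Slc6a5, Slc6a14, Slc6a16, Slc6a18, Slc6a19 and Slc6a21 of SLC6, Slc7a14 and Slc7a15, Slc36a3, and Slc38a5. Of these, Slc6a3, Slc6a4, Slc6a21 and Slc38a5 had 0 reads in all Normal libraries. Slc6a11, the GABA carrier named above, completes the set.

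Several of these carriers are known from other cells to be induced through amino acid response elements, bound by ATF4 with C/EBP factors, or through antioxidant response elements, bound by NRF2. RefSeq promoter windows (250 bases before to 50 after a start site, GRCm38.p6) were given for 44 of the 60 genes, as 64 windows. They were searched on both strands for the cores TGATGNAA and TGACNNNGC, and no carrier window held both. TGATGNAA was found in 4 of the 44 genes (Slc1a4, Slc7a11, Slc7a7 and the untested Slc6a21), and 4.51% of all genes with a window hold it. By windows it was in 5 of the 64 (7.81%), against 3.97% of all 32851. TGACNNNGC was found in 9 of the 44 genes, and 14.0% of all genes with a window hold it. By windows it was in 11 of the 64 (17.2%), against 12.4% of all. Windows of the same gene can overlap, and a TGATGNAA site of Slc7a7 and a TGACNNNGC site of Slc7a6 were each counted in more than 1 window. Of the 11 higher carriers with a window 2 held TGATGNAA and 3 held TGACNNNGC, and of the 3 lower ones 0 and 1 did. The windows below are those of Slc1a4, the called carrier with the largest log2 change, and of Slc7a11. The window of Slc7a11 holds 2 matches and was chosen after its values were seen. The last is the window with a match of Slc6a13, the carrier most abundant in Normal. Each is printed 5′ to 3′ on the gene's strand, with the matches in capitals.
Slc1a4, chr11:20332664-20332963, minus strand: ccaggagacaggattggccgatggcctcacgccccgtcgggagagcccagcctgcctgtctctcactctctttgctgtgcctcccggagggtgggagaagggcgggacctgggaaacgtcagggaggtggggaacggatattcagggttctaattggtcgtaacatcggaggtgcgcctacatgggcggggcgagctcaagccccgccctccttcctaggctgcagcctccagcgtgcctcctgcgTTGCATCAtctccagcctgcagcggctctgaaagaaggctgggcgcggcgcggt
Slc7a11, chr3:50443564-50443863, minus strand: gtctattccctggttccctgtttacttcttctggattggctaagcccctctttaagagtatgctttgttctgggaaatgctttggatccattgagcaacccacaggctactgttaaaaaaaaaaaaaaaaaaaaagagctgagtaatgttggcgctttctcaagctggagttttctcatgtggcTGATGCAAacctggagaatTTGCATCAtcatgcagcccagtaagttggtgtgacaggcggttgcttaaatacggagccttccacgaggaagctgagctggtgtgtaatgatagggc
Slc6a13, chr6:121300038-121300337, plus strand: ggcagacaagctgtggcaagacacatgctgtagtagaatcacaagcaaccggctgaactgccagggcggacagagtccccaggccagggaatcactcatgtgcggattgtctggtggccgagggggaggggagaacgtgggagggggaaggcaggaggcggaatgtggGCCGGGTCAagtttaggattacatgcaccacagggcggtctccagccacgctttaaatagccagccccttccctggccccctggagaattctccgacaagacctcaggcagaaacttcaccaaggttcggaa
In the window of Slc1a4 the match TTGCATCA, TGATGCAA on the other strand, begins 4 bases before the start site. In that of Slc7a11 the same 8 letters occur once on each strand, beginning 66 and 47 bases before the start. The match in the printed window of Slc6a13 is to TGACNNNGC on the other strand and begins 82 bases before the start. The other windows of Slc6a13, not printed, held no match to either core. A match describes the sequence only.

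The counts for the other lists stand against 17.9% of all tested genes called higher and 12.9% called lower, and a share near these is no result about a list. Of 17 tested genes linked to ATF4 and the amino acid response, Atf4, Eif2ak4 and Gcn1 among them, 3 rose and 2 fell. Their median log2 change was 0.15. The asparagine synthetase gene Asns had 2.06, 2.78 and 4.53 in Normal against 35.0, 60.4 and 33.1 in PVR. It rose 13.7-fold from very few reads in Normal (adjusted p 0.000673), so the size of this fold is uncertain. Trib3 and Aldh1l2 passed the test narrowly (adjusted p 0.0489 and 0.0496). The serine synthesis genes Phgdh and Psat1 fell (log2 change -0.68 and -0.32). Atf4 itself had 8475, 2617 and 4914 in Normal against 5797, 3869 and 3783 in PVR, with Normal replicate 2 lowest of all 6, and was not called. Among enzymes of glutathione synthesis 2 of 9 rose (Gclc and Ggt5) and 2 fell (Chac2 and Cth), with a median of 0.08.

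Among enzymes that make or use glutamate, glutamine and GABA, 4 of 10 tested genes rose and 2 fell, with a median log2 change of 0.04. Both that fell are the enzymes of GABA breakdown. The GABA transaminase gene Abat had 7279.6, 8172 and 8947 in Normal against 4347, 4444 and 5825 in PVR (log2 change -0.75, SE 0.14, adjusted p 0.00303), and the succinate semialdehyde dehydrogenase gene Aldh5a1 797, 879.8 and 997 in Normal against 456, 476 and 613 in PVR (log2 change -0.80, SE 0.14, adjusted p 0.00249). The groups of both genes did not overlap. Those that rose were Glud1, Got2, Gpt2 and Aldh18a1.

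Among arginine and ornithine enzymes 5 of 10 rose and 1, Azin2, fell, with a median of 0.52. Arg1, the cytosolic arginase and a marker of some macrophages, had 3.09, 3.70 and 5.44 in Normal against 893, 1245 and 422 in PVR (log2 change 7.29), and Arg2, Ass1, Oat and Odc1 rose as well. Among taurine and creatine enzymes 2 of 8 rose, Cdo1 and Gatm, which catalyse early steps of taurine and creatine synthesis, and the mitochondrial creatine kinase gene Ckmt1 fell, with a median of -0.07.

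Among genes that sense amino acids at the lysosome 2 of 22 rose (Castor1 and Fnip2) and 3 fell (Rragd, Flcn and Mtor, the last with a log2 change of -1.14), with a median of 0.00. Of 7 partners and regulators of carriers 3 rose (Arl6ip5, Nedd4l and Cd44) and 2 fell (Sgk1 and Bsg), with a median of -0.15. Among 22 amino acid carriers of other families 3 rose and 3 fell, with a median of -0.03. The largest rise there was that of Slc15a3, a histidine and peptide carrier of phagocyte lysosomes, with 86.6, 46.3 and 32.6 in Normal against 1428, 875 and 583 in PVR. Slc15a4 and the vesicular monoamine carrier Slc18a1 rose too, and the mitochondrial carriers Slc25a15 and Slc25a38 and the carnitine carrier Slc22a5 fell.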

How the data were processed

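Polyadenylated RNA of primary RPE cells was measured in 3 Normal and 3 PVR mouse libraries, grouped and numbered by their titles. What the authors deposited is a signal for each gene symbol, read counts over 1 size factor for the library, as the values themselves show (100% are whole reads within 0.001 reads once multiplied back). The submitters' processing notes name mm10 and DESeq2 but no step. Aligner, counter, strand setting and annotation: not given in the sources used here, nor is the read length.

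The test was limma 3.58.1 (R 4.3.3, trend and robust moderation) on log2(normalised count + 1), without a block, over the 15766 genes that passed filterByExpr (edgeR 4.0.16, minimum count 10) on the recovered reads, with Benjamini-Hochberg adjustment and a threshold of 0.05. The script was tested on simulated data. Recovered totals were 15269983 to 19173187 reads per library, and no 2 libraries of a group were duplicates (chi-square of at least 17.8 per gene). Libraries with the same number deviated together from their group means (correlations of 0.21, 0.20 and 0.18, other pairs -0.14 to -0.07). Centring on the group mean ties these values, since positive ones for the same number push the other pairs below 0. By these data alone the numbers may pair the samples, and a replicate block was run as an alternative. Others were edgeR, DESeq2 1.42.0 and voom, other scalings, pseudocounts and filters, a 1.5-fold minimum and left-out libraries.

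Exon lengths and coordinates are from GENCODE M21 (GRCm38, 1-based), where all 60 carriers matched, and promoters are from RefSeq. Of the carriers, 12 share exon bases with a gene on the opposite strand. The carriers and the other lists were chosen with earlier results of these data known. Values per library were given for called carriers with an absolute log2 change of at least 1 and a mean log2 CPM of at least 0, for the 2 most abundant members of each family, and for others named after their values were seen. Of the other lists up to 4 called genes with the smallest p were to be named, and further ones were named after their values were seen. A planned comparison of protein sequences was not run. The values of 1 tested carrier are not reported here; it stays in the counts, medians and family sums.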

Additional observations from a re-analysis of the deposited data

How the results depend on the processing

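Of the 21 called carriers 17 kept their call under all 18 alternatives without a fold minimum, and none changed direction. The exceptions were Slc1a1, Slc7a7 and Slc36a4, as given above, and Slc38a2, whose call was lost with replicates 1 and 2 only (adjusted p 0.0796). With Normal replicates 1 and 3 and PVR replicates 1 and 2, Slc36a4 (0.0872) and Slc1a1 (0.159) also lost it, and Slc1a1 with replicates 1 and 2 only (0.0707). The replicate block called 5328 genes and 22 carriers. It added Slc7a2 (adjusted p 0.00402) and changed no other call of a carrier. Of the carriers not called, 5 were called under some alternative. Beside those given above, Slc7a11 was called by voom (0.0426), with a pseudocount of 0.5 (0.0498) and with a 1 CPM filter (0.0457), Slc7a2 by DESeq2 (0.0436), and Slc1a3 with Normal replicates 1 and 3 and PVR replicates 1 and 2 (0.0291). Testing against a 1.5-fold change called 1481 genes, 1232 higher and 249 lower, and 11 carriers, 9 higher and 2 lower. Leaving out 1 library gave 1307 (without Normal replicate 1) to 2026 lower genes, 18 to 22 called carriers and 3614 to 4870 called genes in all. EdgeR called 20 carriers and DESeq2 23. Scaling to library totals called 2538 genes higher and 2464 lower, and 15 and 6 carriers.

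Carriers that were not called and whose direction turned had small changes or 1 high library. Leaving out 1 library, the log2 change ranged from -0.13 to 1.11 for Slc1a3, -0.0623 to 0.14 for Slc1a7, -0.0146 to 0.18 for Slc6a9, -0.0799 to 0.29 for Slc38a6, -1.46 to 0.25 for Slc38a8, -0.15 to 0.0728 for Slc38a9, -0.0052 to 1.42 for Slc43a1 and -0.0039 to 0.21 for Slc43a2. Slc1a7 was at -0.0393 with library totals, -0.0122 with replicates 1 and 2 only and -0.0231 with Normal replicates 1 and 3 and PVR replicates 1 and 2, and Slc7a1 at 0.0192 with replicates 1 and 2 only. The cause was not tested. At these depths 13 carriers could not be tested, and 3 libraries per group limit what can be detected for small changes.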
